A study of Mus musculus with 12 samples.

Results

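The genes described are the WNT ligands, their receptors and the core genes of the WNT pathway in mouse embryonic stem (mES) cells from which the chromatin remodeler BRG1 was depleted. They were chosen by symbol alone: the Wnt, Fzd, Dkk, Sfrp, Dvl, Rspo and Lgr4 to Lgr6 families, Lrp5, Lrp6, Axin1, Axin2, Apc, Ctnnb1, Porcn, Notum, Nkd1, Nkd2, Sp5 and the 4 TCF and LEF genes. This gave 62 of the 24421 genes counted, and all 62 had at least 1 count. They fall into 19 ligands, the acyltransferase Porcn, 10 Frizzled receptors, 2 co-receptors, 7 R-spondins and LGR receptors, 9 secreted inhibitors, 5 Dishevelled and Naked genes, 3 destruction complex genes and 6 genes that act in the nucleus.

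WNT proteins are lipid-modified secreted ligands. They bind Frizzled receptors together with LRP5 or LRP6, Dishevelled is recruited, and the complex of AXIN, APC and GSK3 that otherwise marks β-catenin for degradation is held back, so that β-catenin enters the nucleus and acts through TCF and LEF factors. Several target genes, Axin2, Notum and Nkd1 among them, encode inhibitors of the pathway itself. In mES cells, WNT activity is known for holding back exit from the naive state, in large part by relieving repression by TCF7L1.

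The cells were C57BL/6J blastocyst-derived mES cells with the FKBP12-F36V degron knocked in at the Brg1 locus, through which the small molecule dTAG13 sends BRG1 to the proteasome. They received 0, 0.3, 1, 3, 10 or 100 nM dTAG13 for 24 h, with 2 RNA-seq libraries a dose and 12 in all, and p-values measure the spread between these libraries. The study describes its replicates as biological and its expression plots as drawn from independent experiments, while the labels do not say which cultures the libraries came from. All 6 groups, the controls included, carried the degron and grew on gelatin in serum medium with LIF, the MEK inhibitor PD0325901 and the GSK3 inhibitor CHIR99021. CHIR99021 stabilises β-catenin without a ligand, so every value below was taken with GSK3 inhibited. Wild-type cells given dTAG13 were not analysed here.

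Library totals ran from 4663484 to 6375582 counts, and the transcript of the BRG1 gene, Smarca4, was not lowered at 100 nM (63.8 and 63.1 RPKM in the controls, 70.6 and 70.5 at 100 nM), the degron acting on the protein. RPKM is the count divided by exon length in kb and by the library size after TMM scaling. Of 8 pluripotency markers, all 8 averaged 1 RPKM or more, with a sum of 2086 to 2110 RPKM at 0 nM and 1974 to 2010 at 100 nM. Within that sum Dppa5a and Pou5f1 stood at 71.2% and 88.3% of their 0 nM means at 100 nM, and Nanog and Tdgf1 at 143% each. In 4 of 5 lists of other cell types, both 100 nM libraries had a higher sum than both controls. Eomes, with a mean of 9.16 RPKM at 0 nM and 11.5 at 100 nM, is in both the streak and the trophectoderm list, so those sums are not separate. The neural sum of 8 genes was 43.5 to 47.3 RPKM at 0 nM and 75.5 to 78.0 at 100 nM, the primitive streak and mesoderm sum 15.1 to 18.8 and 24.0 to 24.5, the trophectoderm sum 13.3 to 16.3 and 22.6 to 22.9, and the primitive endoderm sum 2.21 to 2.58 and 3.18 to 3.43. Within the neural sum, the mean of Tubb3 went from 32.2 RPKM at 0 nM to 58.7 at 100 nM and that of Nes from 2.00 to 5.46. Pax6 (0.0519 to 0.958) and Zic1 (0 to 0.487) also rose, at low levels. Sox1, Olig2 and Neurod1 stood at 109%, 97.5% and 93.9% of their 0 nM means, and Neurog2 had 0 counts at 100 nM. The neural sum was higher than in the controls from 1 nM on, and the streak sum was at its highest at 3 nM (25.0 to 26.3). The primitive endoderm sum at 0.3 to 10 nM (1.63 to 2.41) did not exceed the higher control. Of the 8 genes in that sum, 0 averaged 1 RPKM, and they went both ways. At 100 nM Pdgfra stood at 528% and Sox7 at 43.9% of their 0 nM means. The trophectoderm genes were mixed too, with Cdx2 at 858% and Gata3 at 42.2%. The fibroblast sum overlapped, with 3.41 to 4.33 and 3.54 to 4.65 RPKM. Msgn1 of mesoderm and Plac1 of trophectoderm were at 0 in all 4 of these libraries, and Hand1 and Zic1 were at or under 0.0852 RPKM at 0 nM. The part of these marker changes in the results below was not tested, and in bulk RNA fewer cells of a type and less RNA per cell cannot be told apart.

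Most of the ligand repertoire was near the detection limit. Of the 62 genes, 28 averaged 1 RPKM or more across the 12 libraries and were tested among 11378 such genes. The other 34, with 9 to 271 counts over all libraries (median 50), were tested in a second fit that held 23204 genes. Of the 19 ligands, 17 were in the low group. Wnt5b led the ligands at a mean of 6.91 RPKM, followed by Wnt8a at 1.24, and the rest ran from 0.691 (Wnt3a) down to 0.0355 (Wnt5a).

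The receiving side of the pathway was expressed at higher levels. On the same per-length scale, Ctnnb1, the gene of β-catenin, had a mean of 119 RPKM, the highest of the 62 genes. It was followed by the secreted inhibitor Sfrp1 at 37.2, Dvl2 at 27.1 and the receptor Fzd5 at 23.2 RPKM. Tcf7 (22.9), Tcf7l1 (21.8), Axin1 (19.4), Lgr4 (17.7), Lrp6 (17.6) and Apc (17.3) came next. The last 3 of these did not differ beyond their spread over the libraries. Of the feedback genes, Axin2 had a mean of 15.3, Notum of 11.1 and Nkd1 of 0.861 RPKM.

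**Figure D1:**
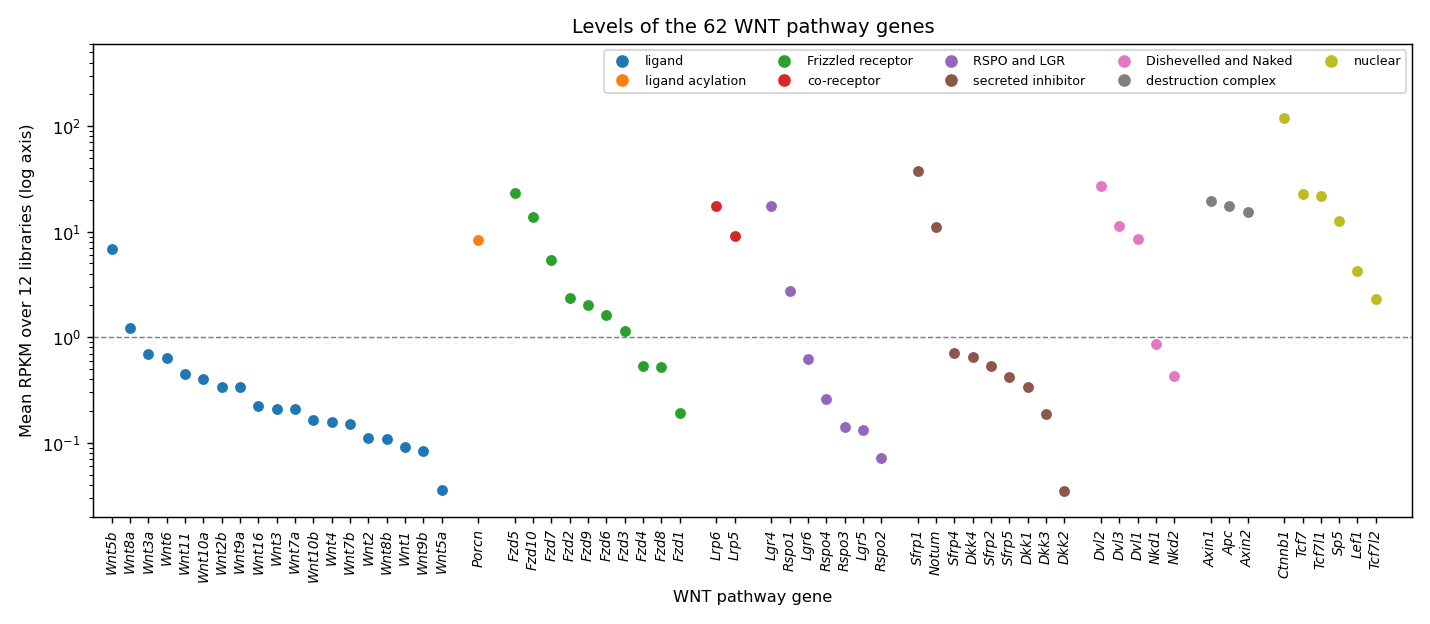
Mean RPKM over the 12 libraries (log axis) of each of the 62 WNT pathway genes, coloured by role and ordered by level within a role, with a dashed line at 1 RPKM. Ctnnb1 stands highest at 119 RPKM, and 17 of the 19 ligands lie under the line.

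Promoter sequences are shown for 5 genes whose transcripts moved with the dose or that serve as pathway reporters, because TCF and LEF factors bind short motifs that can be looked for there. The windows are the 250 bases before the RefSeq start on GRCm38.p6, written 5′ to 3′ on the strand of the gene, and capitals mark a match, on either strand, to CTTTGAA (or the form that ends in T, CTTTGAT) or to CTTTGTA (or likewise CTTTGTT). Sp5 lies on the plus strand (window chr2:70474673-70474922), as do Axin2 (chr11:108920099-108920348), Lef1 (chr3:131110047-131110296) and Fzd7 (chr1:59481897-59482146), and Fzd5 lies on the minus strand (chr1:64737751-64738000).
Sp5: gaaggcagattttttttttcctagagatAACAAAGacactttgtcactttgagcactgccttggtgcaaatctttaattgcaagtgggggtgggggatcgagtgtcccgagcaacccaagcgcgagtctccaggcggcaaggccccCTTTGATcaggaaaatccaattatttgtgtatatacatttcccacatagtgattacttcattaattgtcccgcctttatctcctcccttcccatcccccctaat
Axin2: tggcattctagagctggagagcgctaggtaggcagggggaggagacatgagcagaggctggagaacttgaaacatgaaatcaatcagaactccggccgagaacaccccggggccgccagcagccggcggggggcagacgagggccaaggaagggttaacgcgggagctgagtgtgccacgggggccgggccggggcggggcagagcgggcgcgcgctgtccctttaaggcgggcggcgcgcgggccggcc
Lef1: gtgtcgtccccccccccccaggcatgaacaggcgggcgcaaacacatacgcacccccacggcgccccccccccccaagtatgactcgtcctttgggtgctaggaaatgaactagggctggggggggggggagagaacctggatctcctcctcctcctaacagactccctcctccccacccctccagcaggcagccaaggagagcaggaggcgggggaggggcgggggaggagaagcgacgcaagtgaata
Fzd7: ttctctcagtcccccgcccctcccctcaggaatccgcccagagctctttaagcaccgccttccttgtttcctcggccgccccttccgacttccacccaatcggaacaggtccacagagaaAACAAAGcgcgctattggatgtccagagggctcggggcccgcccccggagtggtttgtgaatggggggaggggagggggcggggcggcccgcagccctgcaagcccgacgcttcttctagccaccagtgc
Fzd5: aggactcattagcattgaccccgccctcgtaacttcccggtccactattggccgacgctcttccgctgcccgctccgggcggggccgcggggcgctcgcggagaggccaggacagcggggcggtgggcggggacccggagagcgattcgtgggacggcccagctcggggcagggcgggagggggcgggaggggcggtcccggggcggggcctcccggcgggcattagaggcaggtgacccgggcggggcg

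The Sp5 window held 2 matches, which began 222 and 104 bases before the start, and the Fzd7 window held 1, which began 130 bases before it. The windows printed for Axin2, Lef1 and Fzd5 held none, which says only that these letters are not in these 250 bases. Lef1 has 4 windows in the table, and the 1 farthest downstream (chr3:131156044-131156293), inside the gene, held a match that began 147 bases before its own start. Of 50 windows matched to 41 of the 62 genes, 7 (14%) held a match, beside 14.8% of all 32851 windows of that length. Windows with 2 or more matches made up 4% of the 50, for Sp5 and Dkk1, and 1.43% of all. A match is a description of letters and not a bound site. Sfrp1, Wnt8a, Fzd2, Notum, Porcn and Dkk4 had no entry in the table used.

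At 100 nM dTAG13 the changes were spread over the roles and went both ways. A DEG, or called gene, had an adjusted p below 0.05 (quasi-likelihood test of edgeR, p-values adjusted by Benjamini-Hochberg over all tested genes, SE for standard error) and changed by more than 1.5-fold. Of the 28 tested genes, 6 rose (Wnt8a, Fzd2, Lef1, Rspo1, Sp5 and Tcf7l1), beside 4.37% of the 11378 genes. Wnt8a averaged 0.547 RPKM at 0 nM and 2.36 at 100 nM, so it was tested here only because of the doses at which it was high. Another 5 fell (Sfrp1, Fzd7, Fzd5, Tcf7l2 and Wnt5b), beside 6.83% of all genes. Without the fold minimum 8 were lower, Axin2, Lrp5 and Ctnnb1 being the additional ones, beside 13.3% of all genes. The median log2 fold change was 0.04 over the 28 and 0 over all tested genes. The remaining 17 were not called, among them Apc, Axin1, Lrp6, Lgr4, Tcf7 and the 3 Dishevelled genes.

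**Figure D2:**
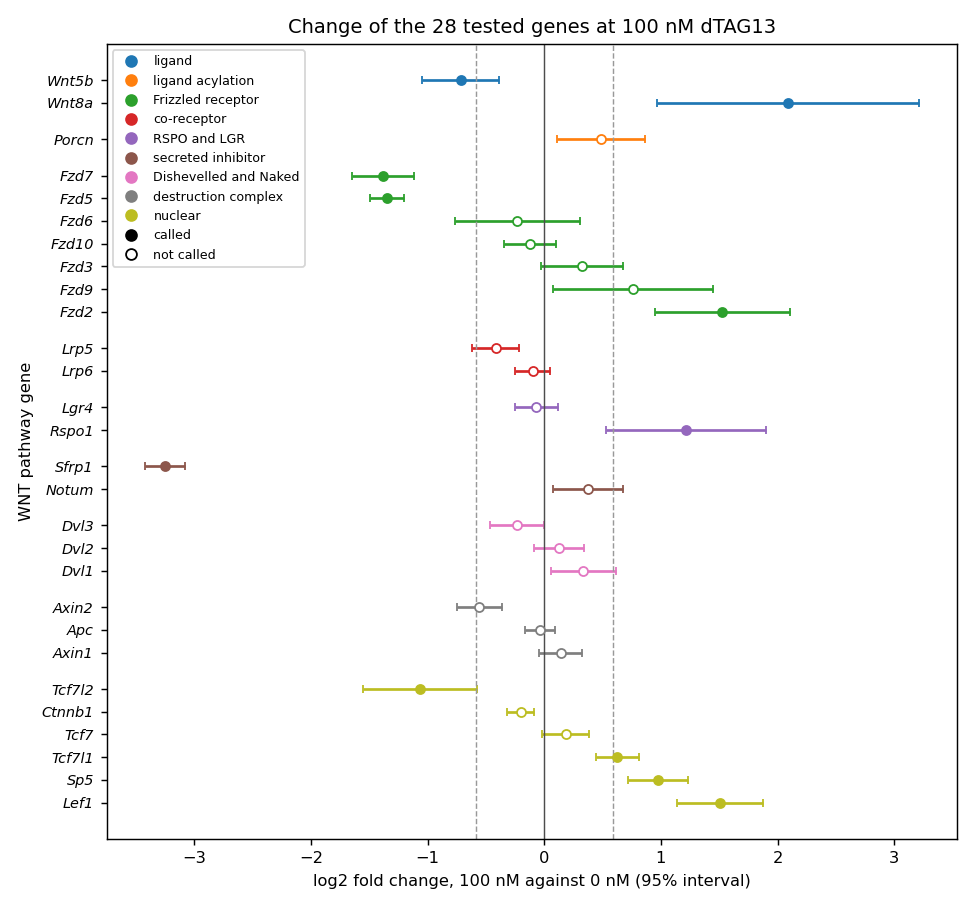
log2 fold change at 100 nM against 0 nM dTAG13 with its 95% interval for the 28 tested genes, grouped and coloured by role. Filled points are called, open points are not, and dashed lines mark a 1.5-fold change. Sfrp1 stands farthest to the left at -3.25, and Wnt8a farthest to the right at 2.09 with the widest interval.

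Sfrp1, which encodes a secreted protein that binds WNT ligands and so blocks them, showed the deepest fall of the 28. It lies on mm10 chromosome 8 from 23411502 to 23449632, plus strand. Its 2 libraries stood at 73.2 and 70.5 RPKM (0 nM), 52.9 and 56.1 (0.3 nM), 43.6 and 40.3 (1 nM), 30.4 and 29.9 (3 nM), 17.2 and 17.4 (10 nM), and 6.90 and 8.14 (100 nM). Both libraries of each dose lay below both libraries of the dose before it, with no overlap anywhere in the series. The log2 fold change against 0 nM was -0.40 (SE 0.07, adjusted p = 0.00927) at 0.3 nM, which is under the fold minimum and not called, and -0.78, -1.25, -2.05 and -3.25 (SE 0.08, adjusted p = 1.67e-19) at the 4 higher doses, all called. At 100 nM the mean was 10.5% of that at 0 nM.

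The fall of Sfrp1 changed the makeup of the secreted inhibitors. The summed RPKM of the 9 genes went from 84.9 and 83.9 (0 nM) to 24.7 and 25.5 (100 nM), and the share of Sfrp1 in that sum from 86.2% and 84.1% to 28% and 31.9%. Without Sfrp1 the sum was 11.7 and 13.3 RPKM at 0 nM and 17.8 and 17.4 (100 nM), higher in both libraries. Most of that remainder was Notum, a secreted enzyme that removes the lipid from WNT ligands, with 9.98 and 11.5 RPKM at 0 nM and 13.9 in each 100 nM library. Notum had a log2 fold change of 0.38 (95% interval 0.08 to 0.68, adjusted p = 0.0615) and was not called, and 20.8% of its exon length lies opposite the antisense gene Notumos and 10.4% opposite Myadml2os, whose reads cannot be told apart in counts that did not use strand.

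The secreted proteins DKK1 and DKK4 block LRP5 and LRP6. Dkk4 had 2 and 0 counts (0 nM), 1 and 3 (0.3 nM), 2 and 1 (1 nM), 2 and 8 (3 nM), 11 and 12 (10 nM), and 6 and 12 (100 nM). Both 10 nM and both 100 nM libraries lay above both controls. The ratio to 0 nM was 11.6 at 10 nM (exact 95% counting interval 2.87 to 102) and 8.83 at 100 nM (2.11 to 78.4), and Dkk4 was called higher at both doses in the fit of low genes (adjusted p = 0.00666 and 0.0253), at 10 nM beside 0.846% of such genes. The call was lost without 0 nM replicate 2 (adjusted p = 0.205 at 10 nM and 0.323 at 100 nM), without 10 nM replicate 2 (0.0537) and without 100 nM replicate 2 (0.298), and in the DESeq2 (0.146) and pairwise (0.152) fits at 100 nM. Dkk1, a β-catenin target, had 1 and 4 counts at 0 nM and 11 and 5 (100 nM), a log2 fold change of 1.53 (95% interval -0.15 to 3.22, adjusted p = 0.265).

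Among the Frizzled receptors, the 2 that fell at 100 nM included the most abundant one, and 1 of the less abundant ones rose. Fzd5 lies on chromosome 1 from 64730558 to 64737750. It had 31.4 and 32.9 RPKM (0 nM), 27.5 and 30.04 (0.3 nM), 28.2 and 27.1 (1 nM), 22.3 and 21.4 (3 nM), 16.5 and 16.3 (10 nM), and 12.6 in each 100 nM library. From 3 nM on each dose lay below the one before without overlap. The log2 fold change was -0.56 at 3 nM (adjusted p = 3.54e-06, under the fold minimum), -0.97 at 10 nM and -1.34 at 100 nM (SE 0.07, adjusted p = 1.93e-13). Of its exon length, 17.8% lies opposite the gene model Gm38058.

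Fzd7, on the same chromosome from 59482147 to 59486955, had 9.01 and 8.51 RPKM (0 nM), 6.16 and 6.28 (0.3 nM), 5.84 and 5.37 (1 nM), 4.19 and 4.7 (3 nM), 3.96 and 4.31 (10 nM), and 3.48 and 3.20 (100 nM). Every treated library lay below both controls, and the 3 and 10 nM libraries overlapped each other. Fzd7 had a log2 fold change of -0.49 at 0.3 nM (adjusted p = 0.153, not called), then -0.64 (1 nM), -0.97 (3 nM), -1.08 (10 nM) and, at 100 nM, -1.39 (SE 0.13, adjusted p = 6.8e-09). The call at 1 nM was lost without 1 nM replicate 2 (adjusted p = 0.085), and the others held without any 1 library.

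Fzd2, on chromosome 11 from 102604431 to 102608058, had 2.07 and 0.892 RPKM (0 nM), 1.21 and 1.92 (0.3 nM), 1.84 and 1.14 (1 nM), 2.39 and 2.34 (3 nM), 3.08 and 2.69 (10 nM), and 4.16 and 4.28 (100 nM). The controls lay apart from each other, and the libraries at 3 nM and above exceeded both. Fzd2 had a log2 fold change of 0.97 at 10 nM (SE 0.30, adjusted p = 0.0229) and 1.52 at 100 nM (SE 0.28, adjusted p = 0.000187). The 10 nM call was lost without 0 nM replicate 2 (log2 fold change 0.47, adjusted p = 0.383) or 10 nM replicate 1 (adjusted p = 0.125) and with DESeq2 (0.0587), while that at 100 nM held.

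The other 4 tested receptors were not called at 100 nM. Fzd10 was at 15.6 and 17.2 RPKM (0 nM), 11.5 and 11.6 (3 nM), and 13.6 and 16.5 (100 nM). Fzd10 differed by a log2 fold change of -0.51 at 3 nM (adjusted p = 0.0045), -0.41 at 10 nM (adjusted p = 0.0102) and -0.12 at 100 nM (95% interval -0.34 to 0.10, adjusted p = 0.469), so the lowest level was at an intermediate dose. Fzd9 was at 1.70 and 1.46 RPKM at 0 nM and 3.19 and 2.15 at 100 nM (log2 fold change 0.76, 95% interval 0.07 to 1.45, adjusted p = 0.104). Fzd3 had a log2 fold change of 0.32 and Fzd6 of -0.23.

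Summed over all 10 receptors, Frizzled RPKM was 63.6 and 64.9 (0 nM), 46.7 and 45.6 (3 nM), and 40.7 and 42.7 (100 nM). The share of Fzd5 in the sum was 49.4% and 50.8% at 0 nM and 31.0% and 29.5% at 100 nM. Fzd10 then took 33.3% and 38.7%, compared with 24.5% and 26.5% at 0 nM, and was the most abundant receptor per length in both 100 nM libraries. Fzd2 took 3.25% and 1.37% at 0 nM and 10.2% and 10.0% at 100 nM. These shares describe transcripts, and receptor protein was not measured here.

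**Figure D3:**
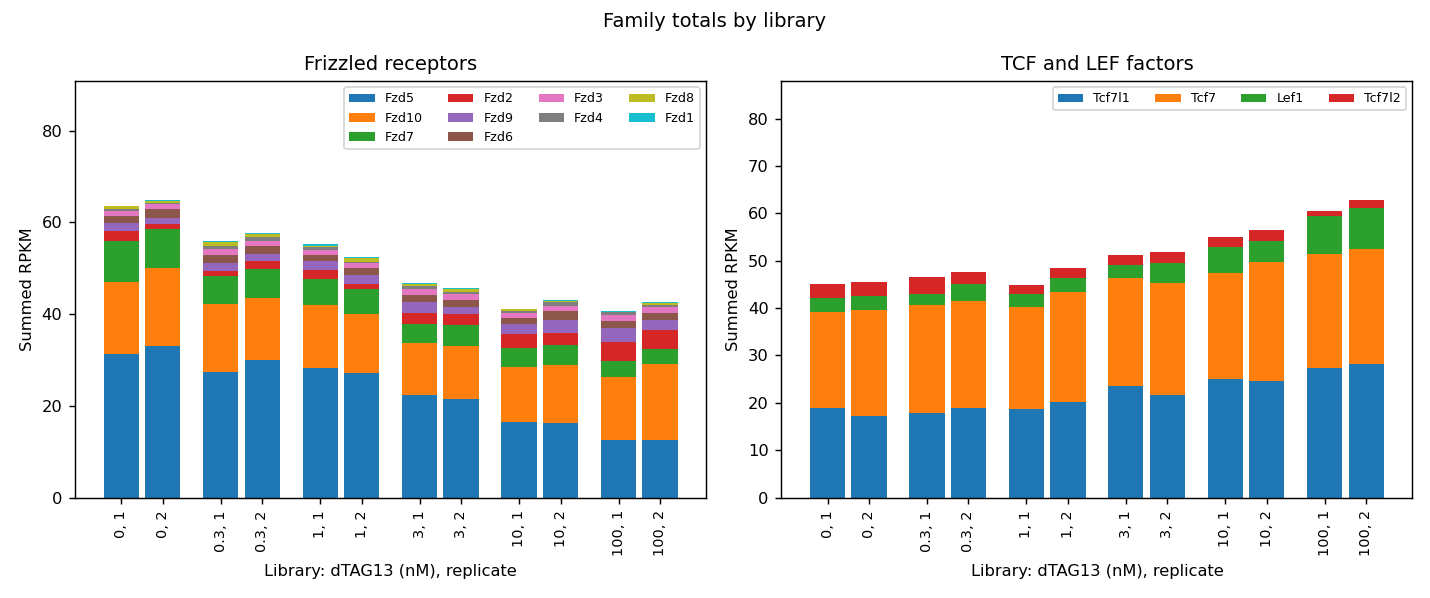
Summed RPKM of the 10 Frizzled receptors (left) and the 4 TCF and LEF factors (right) in each of the 12 libraries, with 1 colour a gene. The Frizzled sum is lower at 100 nM (40.7 and 42.7) than at 0 nM (63.6 and 64.9), and the TCF and LEF sum is higher (60.6 and 62.8 against 45.0 and 45.5).

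Neither co-receptor was called at any dose, and Lrp6 moved less than Lrp5. Lrp6 had 17.7 and 18.8 RPKM at 0 nM and 17.3 and 16.5 (100 nM), a log2 fold change of -0.10 (95% interval -0.25 to 0.05, adjusted p = 0.357). Lrp5 had 11.1 and 12 RPKM (0 nM), 7.96 and 7.91 (1 nM), 9.78 and 9.47 (3 nM), 8.22 and 7.62 (10 nM), and 8.27 and 8.95 (100 nM). Its treated libraries were all below both controls, by a log2 fold change of -0.54 at 1 nM (adjusted p = 0.00253), -0.54 at 10 nM (adjusted p = 0.000268) and -0.42 at 100 nM (adjusted p = 0.00228), each short of 1.5-fold.

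Of the 2 tested ligands, Wnt5b fell and Wnt8a rose, and Wnt8a passed the 1 RPKM filter only through its higher doses. Wnt5b, a ligand known mainly for β-catenin-independent signalling, lies on chromosome 6 from 119432531 to 119544347. It had 6.95 and 8.23 RPKM (0 nM), 6.28 and 6.44 (0.3 nM), 6.75 and 6.74 (1 nM), 8.58 and 8.72 (3 nM), 6.86 and 8.14 (10 nM), and 4.45 and 4.76 (100 nM). The lower doses fell on both sides of the controls, and only the 100 nM libraries lay below all others. Wnt5b fell at 100 nM (log2 fold change -0.72, SE 0.16, adjusted p = 0.0015) and was called at no lower dose.

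Wnt8a, a ligand of the β-catenin branch that acts in the early embryo, was at 0.562 and 0.532 RPKM (0 nM), 0.808 and 0.575 (0.3 nM), 0.220 and 0.763 (1 nM), 1.46 and 0.698 (3 nM), 2.92 and 1.58 (10 nM), and 2.27 and 2.45 (100 nM). The 10 and 100 nM libraries exceeded all those at 1 nM and below. Wnt8a had a log2 fold change of 2.02 at 10 nM (SE 0.55, adjusted p = 0.0112) and 2.09 at 100 nM (SE 0.55, adjusted p = 0.00597). Wnt8a rests on 133 counts over the 12 libraries. The 100 nM call was lost without 0 nM replicate 2 (adjusted p = 0.0537), and that at 10 nM without either control (0.0657 and 0.0844) or without 10 nM replicate 1 (0.168). DESeq2 gave Wnt8a no adjusted p at 10 nM.

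Wnt3a, the ligand that supports self-renewal when added to mES cells, was low throughout, with 26 and 13 counts (0 nM), 15 and 13 (0.3 nM), 12 and 17 (1 nM), 10 and 7 (3 nM), 8 and 4 (10 nM), and 2 and 6 (100 nM). Its libraries at 3 nM and above were below both controls. In the fit of low genes it fell at 10 nM (log2 fold change -1.71, adjusted p = 0.0148), where 0.71% of such genes were called lower, and 100 nM (-2.36, SE 0.56, adjusted p = 0.000483). Without 0 nM replicate 1 the adjusted p of Wnt3a was 0.511 at 10 nM and 0.125 at 100 nM, without 10 nM replicate 2 it was 0.226, and without 100 nM replicate 1 it was 0.0571. It was also over 0.05 at 10 nM with DESeq2 (0.166) and at 100 nM in a pairwise fit (0.0852). Summed over the 19 ligands, RPKM was 12.3 and 12 at 0 nM and 11.6 and 12.4 (100 nM), while the share of Wnt5b went from 56.6% and 68.5% to 38.5% and 38.4% and that of Wnt8a from 4.58% and 4.43% to 19.6% and 19.8%.

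The other 16 ligands were not called at any dose, with at most 101 counts each over the 12 libraries. Wnt6 had 10 and 5 counts at 0 nM and 12 and 5 (100 nM). Wnt2b had 4 and 8 at 0 nM and 13 and 16 (100 nM). Wnt16 had 0 in both controls and both 1 nM libraries, 5 and 3 (0.3 nM), 1 and 3 (3 nM), 3 and 6 (10 nM), and 3 and 2 (100 nM), and a count of 0 allows up to 3 counts, or 0.485 to 0.605 CPM in these libraries. Wnt8b had 0 and 1 in the controls and 6 and 5 at 10 nM, a ratio of 11.1 with an exact 95% counting interval of 1.61 to 478. At 100 nM it had 0 and 6 (ratio 5.88, 0.714 to 271). Wnt7a had 1 and 3 in the controls and 6 and 9 at 100 nM (ratio 3.68, 1.17 to 15.2). These intervals cover counting error alone, and the ligands shown with them were chosen after their values were seen. With so few counts even a 3-fold change could be missed. In simulated counts with 200 genes changed 3-fold at 100 nM, the fit of low genes recovered 0 at 10 to 30 counts over the libraries. It recovered 5 at 30 to 100 counts and 102 at 100 to 300, so a gene not called there is not shown to be unchanged.

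Porcn encodes the acyltransferase that attaches the lipid to WNT ligands. It lies on chromosome X from 8193846 to 8206525 and had 6.80 and 5.92 RPKM (0 nM), 5.84 and 6.89 (0.3 nM), 7.33 and 8.39 (1 nM), 12.7 and 8.07 (3 nM), 9.93 and 10.6 (10 nM), and 10.0 and 7.68 (100 nM). All libraries at 1 nM and above exceeded both controls. Porcn was called higher at 3 nM (log2 fold change 0.70, adjusted p = 0.0142) and 10 nM (0.69, adjusted p = 0.008) and not at 100 nM (0.48, 95% interval 0.11 to 0.86, adjusted p = 0.0569). The call at 3 nM was lost without 0 nM replicate 2 (0.158) or 3 nM replicate 1 (0.346), that at 10 nM without 0 nM replicate 2 (0.106) or 10 nM replicate 2 (0.0539), and one was gained at 100 nM without replicate 2 of that dose (0.0374).

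R-spondins bind LGR receptors and so protect Frizzled receptors from removal. Rspo1, on chromosome 4 from 124986430 to 125009099, had 1.4 and 1.76 RPKM (0 nM), 1.82 and 2.19 (0.3 nM), 2.19 and 2.53 (1 nM), 3.08 and 3.66 (3 nM), 2.51 and 4.49 (10 nM), and 3.49 and 3.88 (100 nM). Every treated library exceeded both controls. Rspo1 had a log2 fold change of 1.09 at 3 nM (adjusted p = 0.0459), 1.13 at 10 nM (adjusted p = 0.0198) and 1.22 at 100 nM (SE 0.33, adjusted p = 0.00842). The 100 nM call was lost without 0 nM replicate 1 (0.0801) or 100 nM replicate 2 (0.0639), that at 10 nM without either control (0.144 and 0.0612) or 10 nM replicate 2 (0.333), and that at 3 nM without any 1 of its 4 libraries (0.0743 to 0.246). With DESeq2 the adjusted p of Rspo1 was 0.148 at 3 nM and 0.0654 at 10 nM, and in a pairwise fit it was 0.0753 at 3 nM.

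Lgr4, the most abundant LGR receptor, was at 19.2 and 20.4 RPKM at 0 nM and 17.4 and 20.2 (100 nM), a log2 fold change of -0.07 (95% interval -0.25 to 0.12, adjusted p = 0.646). Lgr5, an intestinal stem cell marker and β-catenin target, had 7 and 1 counts in the controls and 10 and 7 at 100 nM (log2 fold change 0.95, 95% interval -0.67 to 2.58). Rspo2, Rspo3, Rspo4 and Lgr6, in the low group, were not called.

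None of the Dishevelled and destruction complex genes tested was called at 100 nM. Dvl2 had 25.1 and 25.4 RPKM at 0 nM and 25.5 and 29.3 at 100 nM (log2 fold change 0.13, 95% interval -0.08 to 0.34). Dvl3 (-0.23, -0.46 to 0.00) and Dvl1 (0.33, 0.06 to 0.61, adjusted p = 0.0765) were not called either. In the destruction complex, Apc had a log2 fold change of -0.04 (95% interval -0.17 to 0.09) and Axin1 of 0.14 (-0.04 to 0.33), both with intervals inside 1.5-fold. Ctnnb1 had 125 and 126 RPKM at 0 nM and 112 and 106 (100 nM). Its log2 fold change was -0.20 (95% interval -0.32 to -0.08, adjusted p = 0.0102), under the fold minimum, and 20.9% of its exon length lies opposite Ulk4.

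The feedback targets did not move together. Axin2, the most used reporter of β-catenin activity, had 16.6 and 17 RPKM (0 nM), 16.6 and 18.1 (0.3 nM), 16.3 in each 1 nM library, 18.1 and 15.5 (3 nM), 13.3 and 13.6 (10 nM), and 11.4 in each 100 nM library. Up to 3 nM it overlapped the controls or lay within 1 RPKM of them, and at 10 and 100 nM it lay below. Axin2 had a log2 fold change of -0.32 at 10 nM (adjusted p = 0.0161) and -0.56 at 100 nM (SE 0.09, adjusted p = 6.61e-05), just short of 1.5-fold, and it passed that limit (-0.64) when all genes with a count were fitted together.

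Nkd1, which encodes an inhibitor that binds Dishevelled, had 13 and 17 counts (0 nM), 11 and 11 (0.3 nM), 18 and 16 (1 nM), 18 and 37 (3 nM), 33 and 25 (10 nM), and 41 and 31 (100 nM). Nkd1 rose at 100 nM in the fit of low genes (log2 fold change 1.15, SE 0.36, adjusted p = 0.0116). The call was lost without 0 nM replicate 1 (0.137) or 100 nM replicate 1 (0.194), with DESeq2 (0.114) and in a pairwise fit (0.0755). Nkd2 had 12 and 20 counts (0 nM), 3 and 5 (1 nM), 4 and 4 (3 nM), and 8 and 15 (100 nM), with log2 fold changes of -1.97 at 1 nM (adjusted p = 0.0865), -1.83 at 3 nM (adjusted p = 0.0599) and -0.57 at 100 nM (adjusted p = 0.533). Of the 34 low genes, 2 (Dkk4 and Nkd1) were called higher at 100 nM, beside 3.25% of 11826 genes of that kind, and 1 (Wnt3a) lower, beside 0.82%.

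Of the nuclear genes, 3 rose and 1 fell at 100 nM. Sp5, a transcription factor gene directly activated by β-catenin, lies on chromosome 2 from 70474923 to 70477726, next to the promoter window with 2 matches above. It had 10.3 and 10.2 RPKM (0 nM), 10.7 and 12.1 (0.3 nM), 12.4 and 10.3 (1 nM), 10.5 and 11.2 (3 nM), 12.2 and 12.4 (10 nM), and 20.5 and 19.6 (100 nM). The step lay between 10 and 100 nM. Sp5 had a log2 fold change of 0.27 at 10 nM (adjusted p = 0.189, not called), 0.97 at 100 nM (SE 0.12, adjusted p = 1.41e-06) and 0.71 between 100 and 10 nM (adjusted p = 0.00092).

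Lef1, the TCF family member that acts mainly as an activator, lies on chromosome 3 from 131110297 to 131224357. It had 2.92 and 3.03 RPKM (0 nM), 2.52 and 3.46 (0.3 nM), 2.72 and 2.87 (1 nM), 2.68 and 4.07 (3 nM), 5.39 and 4.56 (10 nM), and 8.18 and 8.65 (100 nM). Libraries up to 3 nM lay on both sides of the controls, and those at 10 and 100 nM formed 2 separate steps above them. Lef1 had a log2 fold change of 0.74 at 10 nM (adjusted p = 0.00755) and 1.51 at 100 nM (SE 0.18, adjusted p = 4.25e-07). The 10 nM call was lost without 0 nM replicate 1 (0.0584) or 10 nM replicate 1 (0.0869), and 37.5% of the exon length of Lef1 lies opposite the gene model Gm43352.

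Tcf7l1, the main repressor among the TCF factors of mES cells, lies on chromosome 6 from 72626371 to 72789045. It had 18.9 and 17.2 RPKM (0 nM), 17.9 and 18.8 (0.3 nM), 18.8 and 20.2 (1 nM), 23.6 and 21.6 (3 nM), 24.9 and 24.6 (10 nM), and 27.3 and 28.2 (100 nM). From 3 nM on all its libraries exceeded the controls. Tcf7l1 had a log2 fold change of 0.32 at 3 nM (adjusted p = 0.0276), 0.46 at 10 nM (adjusted p = 0.000767) and 0.63 at 100 nM (SE 0.09, adjusted p = 8.45e-06), and only the last passed 1.5-fold. Without 0 nM replicate 2 it was 0.56, and over all genes with a count 0.55, both under the fold minimum with an adjusted p that still passed.

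Tcf7l2 was the 1 TCF gene that fell. It lies on chromosome 19 from 55741810 to 55933655 and had 2.89 and 2.98 RPKM (0 nM), 3.58 and 2.53 (0.3 nM), 1.98 and 2.18 (1 nM), 2.04 and 2.41 (3 nM), 2.05 and 2.18 (10 nM), and 1.04 and 1.74 (100 nM). The libraries at 1 nM and above were all below the controls. Tcf7l2 had a log2 fold change of -1.07 at 100 nM (SE 0.24, adjusted p = 0.00148), and without 100 nM replicate 1 it was -0.75 (adjusted p = 0.0622). Tcf7 had 20.3 and 22.3 RPKM at 0 nM and 24.0 and 24.2 (100 nM), a log2 fold change of 0.18 (95% interval -0.02 to 0.39, adjusted p = 0.193).

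Summed over the 4 factors, RPKM was 45.0 and 45.5 at 0 nM and 60.6 and 62.8 (100 nM). Tcf7 took 45.1% and 48.9% of the sum at 0 nM and 39.7% and 38.5% at 100 nM. The share of Lef1 went from 6.48% and 6.65% to 13.5% and 13.8%, and that of Tcf7l2 from 6.42% and 6.56% to 1.72% and 2.77%. Tcf7l1 took 42.0% and 37.9% at 0 nM and 45.1% and 45.0% at 100 nM, so that it passed Tcf7 as the largest share in both 100 nM libraries.

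**Figure D4:**
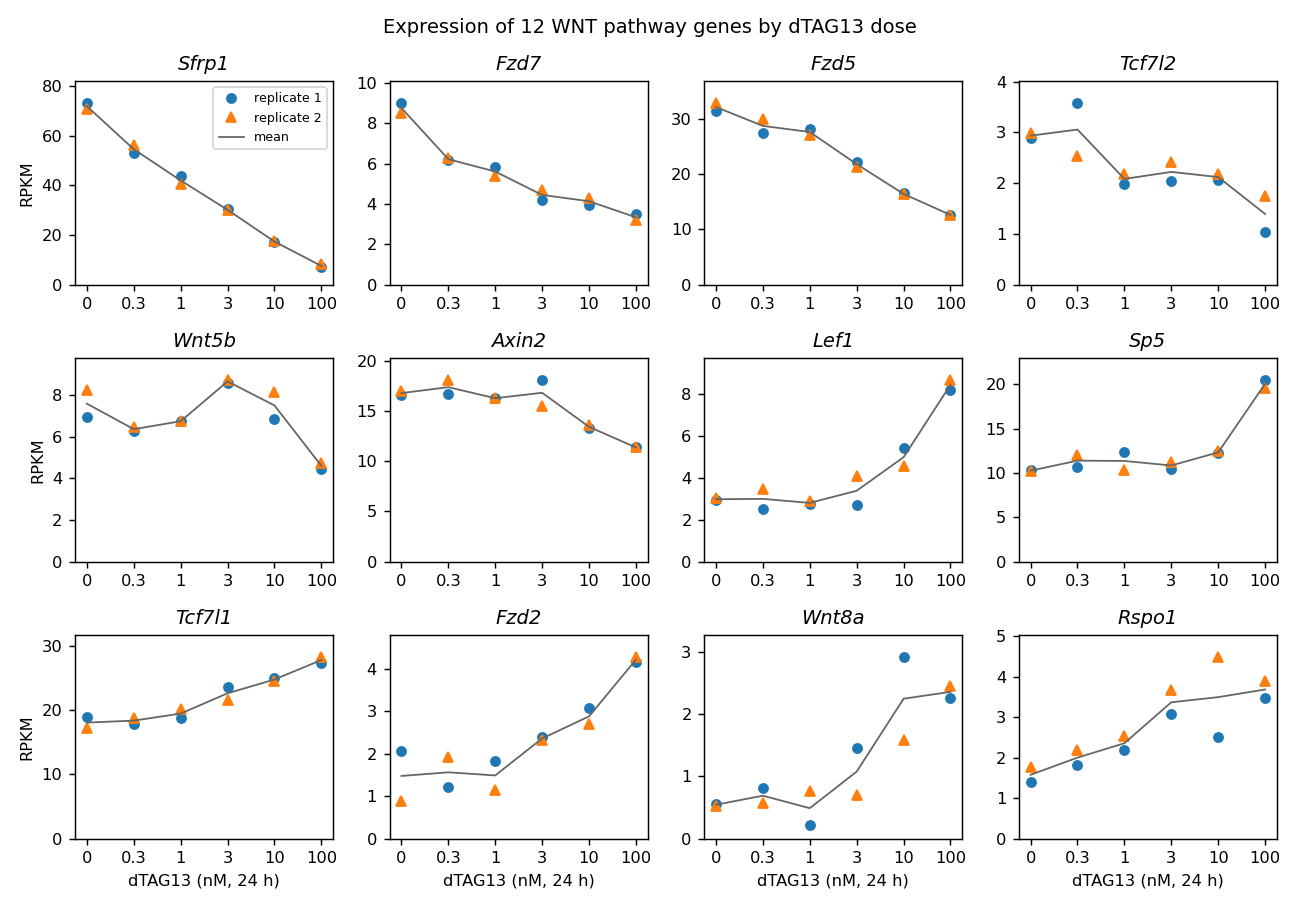
RPKM of 12 WNT pathway genes at each dTAG13 dose after 24 h, with points for the 2 libraries, a line through their means, and an axis from 0 in each panel. Sfrp1 declines at every dose from 73.2 and 70.5 to 6.90 and 8.14, whereas Sp5 stays between 10.2 and 12.4 up to 10 nM and reaches 20.5 and 19.6 (100 nM).

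Below 100 nM fewer of the genes were called, those at 1 nM were lower than in the controls, and from 3 nM on both directions appeared. At 0.3 nM, 0 of the 28 genes were called higher and 0 lower, by edgeR and by DESeq2 alike, beside 0% and 0.0176% of the 11378 genes. In that edgeR test 6 of the 28 had an unadjusted p under 0.05, beside 859 of the 11378 genes. Sfrp1 passed the adjusted threshold there without the fold minimum. At 1 nM, 0 were called higher (0.185% of all genes) and 2 fell, Sfrp1 and Fzd7 (0.729%), with the same counts by DESeq2. By edgeR 8 of the 28 had an unadjusted p under 0.05 at 1 nM, beside 1536 of the 11378 genes. At 3 nM, 2 rose, Rspo1 and Porcn (1.52%), and the same 2 fell (2.38%). At 10 nM, 5 rose, Fzd2, Wnt8a, Lef1, Rspo1 and Porcn (3.01%), and 3 fell, Sfrp1, Fzd7 and Fzd5 (4.92%). Among those that rose, Wnt8a passed the 1 RPKM filter only through its higher doses. All doses were set against the same 2 controls, so these counts are not independent of each other. Without the fold minimum the number lower was 1 at 0.3 nM (0.0703% of all genes), 4 at 3 nM (5.25%) and 6 at 10 nM (10.1%). The order in which genes crossed the threshold was not tested, and it depends on each gene's level and spread.

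**Figure D5:**
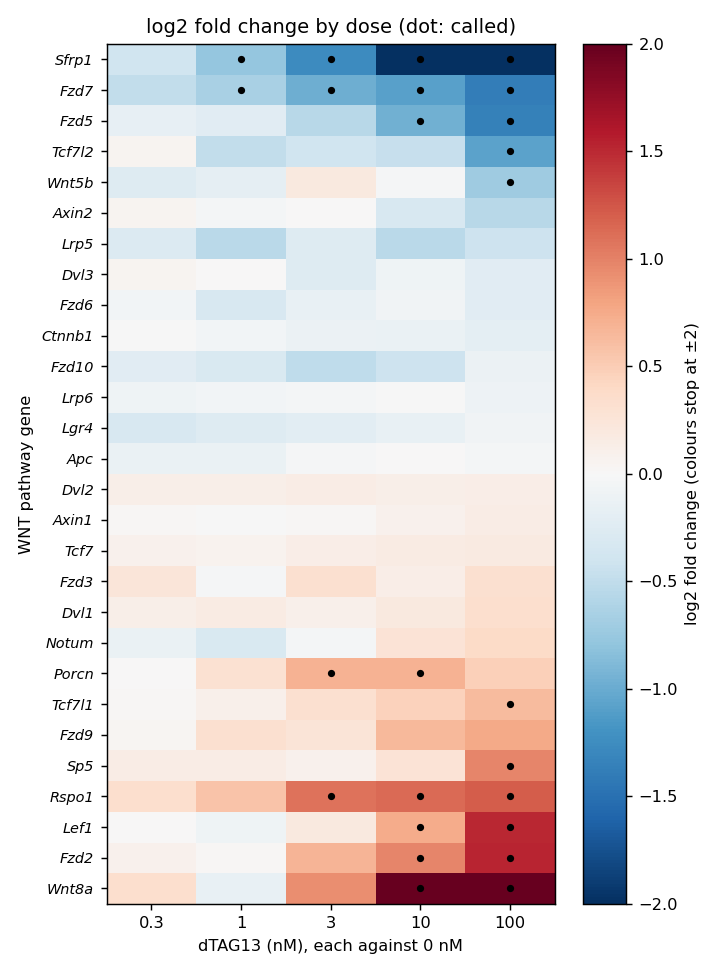
log2 fold change against 0 nM of the 28 tested genes at the 5 dTAG13 doses, ordered by the value at 100 nM, with a dot where a gene was called. Colours stop at 2 in either direction. Sfrp1 and Fzd7 are called from 1 nM, Rspo1 from 3 nM, Lef1, Fzd2 and Wnt8a from 10 nM, and Sp5, Tcf7l1, Tcf7l2 and Wnt5b at 100 nM alone.

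Doses were also compared without the controls. The sample numbers in the labels run in one series for the libraries of 0, 1, 10 and 100 nM and in another for those of 0.3 and 3 nM. The 2 comparisons below stay within a series, whereas every comparison of 0.3 or 3 nM with 0 nM crosses them. Between 3 and 0.3 nM, Sfrp1 fell (log2 fold change -0.85, adjusted p = 3.22e-08) and was the 1 gene of 28 called lower, beside 1.2% of all genes, and Porcn (0.69, adjusted p = 0.0246) was the 1 called higher, beside 0.747%. Fzd5 and Fzd7 made it 3 lower without the fold minimum, beside 2.88%. Nkd1 of the low genes was also higher there (1.37, adjusted p = 0.0205), beside 0.169% of such genes. The calls of Porcn and Nkd1 were each lost without either 0.3 nM library (Porcn 0.234 and 0.0659, Nkd1 0.164 and 0.136), and without 3 nM replicate 1 for Porcn (0.386) or replicate 2 for Nkd1 (0.614). With DESeq2 they were 0.0598 for Porcn and 0.196 for Nkd1, and in a pairwise fit 0.0583 and 0.0796.

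Between 100 and 10 nM, Sfrp1 fell again (log2 fold change -1.20, adjusted p = 3.94e-09), as did Wnt5b (-0.70, adjusted p = 0.0149), 2 of 28 beside 0.791% of all genes. Sp5 and Lef1 rose (0.71 and 0.76, adjusted p = 0.00092 and 0.00946), 2 of 28 beside 0.193%. Fzd5 was lower by -0.38 on the log2 scale (adjusted p = 0.00337), under the fold minimum. The Lef1 call was lost without 10 nM replicate 2 (0.144) or either 100 nM library (0.0801 and 0.14), and that of Wnt5b in the same 3 cases (0.234, 0.188 and 0.109), with DESeq2 (0.0725) and in a pairwise fit (0.0562). A fit of the 8 libraries of 0, 1, 10 and 100 nM alone changed no call of these genes.

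Beyond the 62 genes, 60 further genes of WNT secretion, receptor turnover, co-repression and planar polarity were listed, of which 46 were tested. At 100 nM, 9 of the 46 fell (6.83% of all genes) and 2 rose (4.37%), or 13 and 6 without the fold minimum (13.3% and 10.1%), with a median log2 fold change of -0.15. Wls, which carries lipidated WNT ligands to the cell surface, had 5.61 and 4.96 RPKM at 0 nM and 1.95 and 1.46 at 100 nM (log2 fold change -1.62, SE 0.25, adjusted p = 1.82e-05). Its groups were well apart, and Wls and Porcn act in the same secretion route. Tle3, a co-repressor that TCF factors recruit, went from 20.1 and 21.6 RPKM to 9.39 and 9.09 (log2 fold change -1.17, adjusted p = 1.12e-10). Jup, which encodes plakoglobin, the close relative of β-catenin, went from 31.1 and 33.6 to 12.7 and 11.8 RPKM (-1.40, adjusted p = 4.18e-13).

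The planar polarity and Dishevelled-binding genes on that list went both ways. Vangl1, a planar polarity gene, fell from 14 and 15.5 RPKM (0 nM) to 4.12 and 4.53 at 100 nM (log2 fold change -1.76). Dact2, a Dishevelled-binding protein gene, fell from 25.3 and 23.2 to 6.54 and 6.28 RPKM (-1.91), whereas its paralog Dact1 rose from 0.454 and 0.602 to 2.27 and 2.45 RPKM (2.15, adjusted p = 4.29e-05). With means of 0.528 RPKM at 0 nM and 2.36 at 100 nM, Dact1 was in the main fit only because of the doses at which it was high. Celsr2, a polarity cadherin gene, rose from 1.04 and 0.951 to 2.81 and 2.47 RPKM (1.42), whereas its paralog Celsr3 fell from 1.77 and 1.44 to 1.15 and 0.939 RPKM (-0.61, adjusted p = 0.0197), a call lost without 0 nM replicate 1 (0.193) or 100 nM replicate 2 (0.19), with DESeq2 (0.0833), or with no normalization factors (log2 fold change -0.57, under the fold minimum). The other 3 that fell were Csnk1e, a casein kinase (-0.64), Amer1, an APC-binding protein (-0.93), and Tpbg, a membrane protein that inhibits WNT signalling (-1.14).

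Of 14 low genes on the list, Prickle1 (log2 fold change 2.04, adjusted p = 4.18e-05) and the WNT5A receptor gene Ror1 (adjusted p = 1.25e-05) rose, beside 3.25% of low genes. Ror1 was at 0 and 0.0457 RPKM (0 nM) and at 0.926 and 0.914 (100 nM). Gsk3b, the kinase that CHIR99021 inhibits, had 8.08 and 9.06 RPKM at 0 nM and 7.73 and 7.70 at 100 nM (log2 fold change -0.15, 95% interval -0.33 to 0.04, adjusted p = 0.261) and was not called.

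A list of 22 genes known as β-catenin targets, 16 of them tested, shares 8 genes with the 62. At 100 nM, 4 of the 16 rose (Sp5, Lef1, Tnfrsf19 and Myc) and 2 fell (Cdx1 and Rhou), beside 4.37% and 6.83% of all genes, with a median log2 fold change of 0.28. Over the 11 tested targets outside the 62 genes, the median was 0.19, with 2 higher and 2 lower. Tnfrsf19, a receptor of the TNF family, rose from 2.54 and 3.15 to 7.34 and 7.49 RPKM (log2 fold change 1.38, SE 0.14, adjusted p = 5.21e-08). Myc rose from 24.2 and 23.7 to 43.9 and 47.4 RPKM (0.94, adjusted p = 1.73e-09) and was already at 37.9 and 37.7 (1 nM).

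Cdx1, a homeobox gene of the posterior embryo, fell from 30.4 and 32.7 RPKM (0 nM) to 10.0 and 8.60 at 100 nM (log2 fold change -1.76, SE 0.12, adjusted p = 4.17e-11). Its libraries at 3 nM (23.0 and 20.9) and 10 nM (15.2 and 13.5) lay in between, without overlap. Rhou went from 3.80 and 5.04 to 2.82 and 2.55 RPKM (-0.72, adjusted p = 0.0154), a call lost without 0 nM replicate 2 (0.227), 100 nM replicate 1 (0.0549) or 100 nM replicate 2 (0.116), or with DESeq2 (0.0728). Without the fold minimum 6 of the 16 were higher, Gbx2 and Znrf3 being the additional ones, beside 10.1% of all genes. By the same rule 3 were lower, with Axin2 added, beside 13.3%. Known targets thus stood on both sides in the same 100 nM libraries, with Cdx1 and Rhou called lower and Sp5, Lef1, Myc and Tnfrsf19 called higher.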

How the data were processed

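RNA-seq was analysed for the 12 libraries of degron-tagged mES cells at 6 dTAG13 doses, grouped by the dose in the sample labels. Raw counts of read pairs were deposited for each gene symbol, made with Trim Galore, HISAT2 (mm10) and featureCounts 2.0.1 over exons, for which both ends of a pair had to align, pairs that map to several places or overlap several genes did not count, and strand was ignored although the kit marks it. These counts are as deposited, with no normalization or filter by the authors. Totals of 4663484 to 6375582 counts limit the precision of low genes, Rn45s took 10.5% to 19.4% of them, and without molecular identifiers the intervals and the floor of 3 counts express counting error alone. The 2 libraries of a dose differed most at 3 nM, where Rn45s took 10.5% and 19.0%. Over genes with Rn45s included, their chi-square per degree of freedom was 15.6 at 3 nM and 9.04 at 10 nM. At the other doses it was 1.96 to 5.74. The fit shares 1 estimate of spread over the doses.

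The tools were edgeR 4.0.16, DESeq2 1.42.0 and limma 3.58.1 in R 4.3.3. RPKM came from TMM library sizes and the exon lengths in the file. The 11378 genes that averaged 1 RPKM or more across the 12 libraries were fitted together with 1 mean per dose and compared by the quasi-likelihood test of edgeR with p-values adjusted by Benjamini-Hochberg, and a gene was called at an adjusted p below 0.05 and a change of more than 1.5-fold. The study's likelihood ratio test was an alternative. A second fit of the 23204 genes with at least 1 count gave the tests of genes under 1 RPKM. The steps were tested on simulated counts.

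The 62 genes, the further lists and the tests were chosen with earlier results of these data known. Named were all called genes of the lists, the pathway's main feedback and core genes whatever their values, and the most abundant ligand, Frizzled receptor, secreted inhibitor and LGR gene. Genes named beyond that rule were chosen after their values were seen, for counts and the remaining receptors. Promoter windows are those of RefSeq on GRCm38.p6, and overlaps on the opposite strand come from GENCODE vM21.

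Alternatives covered the test, the normalization, the filter, a pairwise fit, a fit of 8 libraries, a replicate block, the fold minimum and each library left out in turn.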

Additional observations from a re-analysis of the deposited data

How the results depend on the processing

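Over 69 single-gene results and 982 alternative values, 909 stayed on the same side of the threshold and 71 kept the direction and lost the call. Another 2 gained a call, and 0 reversed among results called in either fit. Where neither fit called the gene, a change of sign was not counted as reversed. Apc at 100 nM went from a log2 fold change of -0.0385 to at most 0.00917, and Lgr4 from -0.0671 to at most 0.037. The counts of called WNT genes moved by more than 1.5 times as follows, and the cause was not tested unless the setting itself gives it. Without the fold minimum, the counts called lower at 0.3, 3, 10 and 100 nM became 1, 4, 6 and 8, that for 3 against 0.3 nM became 3, and the other pathway genes called higher became 6. With DESeq2's Wald test, 1 gene was higher at 3 nM, 2 at 10 nM (where Wnt8a was given no adjusted p) and 0 for 3 against 0.3 nM, 1 was lower for 100 against 10 nM, 0 low genes were higher at 100 nM, and 1 target was lower. With a pairwise fit, 1 was higher at 3 nM and 0 for 3 against 0.3 nM, 1 was lower for 100 against 10 nM, and 0 low genes were higher and 0 lower at 100 nM. With all genes that had a count in 1 fit, 2 genes were higher for 3 against 0.3 nM, and 4 other pathway genes at 100 nM. With a mean of at least 0.5 RPKM, 2 were higher for 3 against 0.3 nM, and with at least 2 RPKM, 0 other pathway genes were higher, because Dact1 and Celsr2 were then not tested.

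With 1 library left out, the count was 1 to 3 for genes lower at 1 nM, 0 to 2 for genes higher at 3 nM, 1 to 3 for genes higher at 10 nM, 0 to 1 for genes higher between 3 and 0.3 nM, 1 to 2 for genes higher and 1 to 2 for genes lower between 100 and 10 nM, 1 to 2 for low genes higher and 0 to 2 for low genes lower at 100 nM, and 1 to 2 for targets lower at 100 nM. Where this left a dose with 1 library, that library was assumed to vary like the other doses. The calls of Sfrp1, Fzd7, Fzd5, Fzd2, Sp5, Lef1 and Wnt5b at 100 nM held under every alternative run.

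The replicate numbers did not pair the samples: over 15 pairs of doses the correlation of same-numbered deviations ran from -0.110 to 0.0888. With a replicate block, all genes called at 100 nM went from 1274 to 1254 and at 1 nM from 104 to 98, and no count of WNT genes moved. The depth limits what can be said of the 34 low genes, for which even a 3-fold change could be missed.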
